A study of Mus musculus with 18 samples.

Results

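The genotype difference after peptide stimulation was read from 6 of the 18 libraries of the series, 3 labelled KO and 3 labelled WT. The rule takes these libraries from the deposited table of normalized values by their labels, without any measured value. The series profiled CD8 T cells from spleens of mice that carry the P14 T cell receptor transgene, which recognises the gp33 peptide of a virus. Mice labelled KO lack TrIP in CD8 T cells only. TrIP is the protein of Pik3ip1, a membrane protein that restrains phosphoinositide 3-kinase (PI3K), and the Cre line or other means of deletion is not given in the sources used here. In the compared groups, splenocytes were cultured for 24 h with 100 ng/ml of high-affinity gp33, 50 U/ml IL-2 and 2 ng/ml IL-12, and CD8 T cells were then sorted. Both genotypes therefore shared the receptor transgene and both cytokines, and both were cultured among other spleen cells. The other 12 libraries are 3 of each genotype cultured with the cytokines alone and 3 of each cultured with gp33, the cytokines and IC87114 at 10 µM, which blocks the delta isoform of PI3K. A general protocol text of the labels names gp33 for every sample, whereas by titles and per-sample treatment labels the cytokine-only groups had none, and these were followed. Nothing in the labels ties replicates to separate animals, so p-values measure the spread between these samples, which may be technical.

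A CD8 T cell that meets its peptide sends signals through calcium and NFAT, through ERK and AP-1, through NF-kB and through PI3K and AKT. The first routes switch on cytokine, chemokine and costimulatory ligand genes. PI3K and AKT push glycolysis and lipid synthesis and hold FOXO factors, which keep quiescence and homing genes on, out of the nucleus. The p53 factor answers stress and DNA damage with genes that stop the cell cycle or prime cell death. Interferons act on the same cells through STAT factors and induce antiviral and antigen presentation genes.

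Of 23414 genes, 10257 had a normalized value of at least 1 in at least 3 of the 18 libraries and were tested on the log2(value + 1) scale with limma. Calls needed an adjusted p (Benjamini-Hochberg) under 0.05, and fold changes are libraries labelled KO minus WT, on that scale, which understates changes of low genes. With gp33, 2457 genes were called, 24.0% of those tested. Of these, 1525 were higher in the libraries labelled KO, 14.9% of all tested, and 932 were lower, 9.09%. Calls of at least 1 on the log2 scale numbered 271 higher and 56 lower, together 3.19% of the genes tested. The median fold change over all genes tested was 0.0031. Groups did not overlap in 55.7% of all tested genes. In 3083 genes (30.1%) all 3 libraries labelled KO were above all 3 WT libraries, with 25.6% the reverse. A gene low in one group could pass the filter through the other group alone, as Ak1, Cdkn2b, Il22, Cd70 and Gzmc may have. For such genes a call or lack of overlap is partly set by the filter. With the values of protein-coding genes alone, rescaled, 1564 genes were higher and 529 lower, so 74.7% of calls were higher against 62.1% in the whole table. With a filter at a value of 5 the balance turned, with 724 higher and 744 lower, 49.3% higher, among 5496 genes tested. Leaving out replicate 2 labelled KO lowered the calls to 1582, and leaving out WT replicate 3 lowered them to 1605. Replicate 2 was the highest of the libraries labelled KO in 58.1% of the genes called higher, against 31.8% of all genes tested. WT replicate 3 was the lowest WT library in 55.9% of the genes called higher. Its share over all genes tested was not computed. Without WT replicate 2 of the inhibitor group, a library outside this comparison that stands apart from its group, 2457 calls became 3647.

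Pik3ip1, the targeted gene (ENSMUSG00000034614), did not follow its label. Its normalized value was 1.53, 1.67 and 1.63 in the 3 libraries labelled KO and 0.863, 0.773 and 0.655 in the 3 WT libraries. All libraries labelled KO were above all WT libraries, with a log2 fold change of 0.57 (SE 0.076, limma adjusted p = 8.35e-05). Without peptide, where the gene was far higher, it read 74.6, 74.9 and 78.9 with the KO label and 31.0, 33.4 and 28.5 in WT. The limma fold change there was 1.27 (adjusted p = 4.33e-08). With gp33 and inhibitor it was 1.07 (adjusted p = 1.32e-06), so the gene was higher with the KO label in every condition. The labels do not say which exons were removed, so gene-level values may not report the deletion, and directions below are those of the labels as deposited. Of 8 CD8 T cell markers 2 were higher and 1 lower, and their summed value was 1388 to 1574 with the KO label and 1092 to 1167 in WT. Cd8a read 112, 96 and 111 against 122, 126 and 126, and the gene called lower was Cd8b1. Cd4, Foxp3, Zbtb7b and Cd40lg, markers of CD4 T cells, all stayed under the filter, with sums of 0.802 to 1.06 against 0.534 to 0.603, as did 4 dendritic cell genes, with sums of 0.297 to 0.508 against 0.109 to 0.14. Summed B cell markers ranged from 225 to 1030.0 against 173 to 233, the highest being replicate 1 labelled KO, with none of 10 tested markers called. Of 2 tested plasma cell markers Mzb1 was higher, with list sums of 5.76 to 14.7 against 2.43 to 3.15. Of 4 MHC class II markers Cd74, H2-Aa and H2-Eb1 were higher and H2-Ab1 lower, with sums of 22.4 to 34 against 17.8 to 23. Of 2 tested sex-linked markers Ddx3y was higher, with list sums of 5.43 to 6.18 against 3.88 to 4.03. Of 13 myeloid markers 6 were tested and Cst3 and Cd14 were higher, with sums of 113 to 151 against 43.1 to 53. The 7 untested myeloid markers were under the filter. Adgre1, Csf1r and Itgam were at or near 0 in all 6 libraries, while Fcgr3 read 0.119, 0.169 and 0.145 against 0.0931, 0 and 0.0278. C1qb read 0.0655, 0.0392 and 0.0401 against 0.00705, 0.00668 and 0. Both tested natural killer cell markers, Fcer1g and Tyrobp, were higher, and sums over all listed members were 2.3 to 2.88 against 0.264 to 0.616. Of the untested members Klre1 read 0.735, 0.63 and 0.939 against 0.0701, 0.123 and 0.0966, and Ncr1 read 0, 0.0128 and 0.0131 against 0 in every WT library. The share of summed values from protein-coding genes was 27.9% to 28.5% in libraries labelled KO and 26.1% to 26.5% in WT. The part of these differences in the results was not tested. In sorted bulk RNA, fewer cells of a type and less RNA per cell cannot be told apart.

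**Figure D1:**
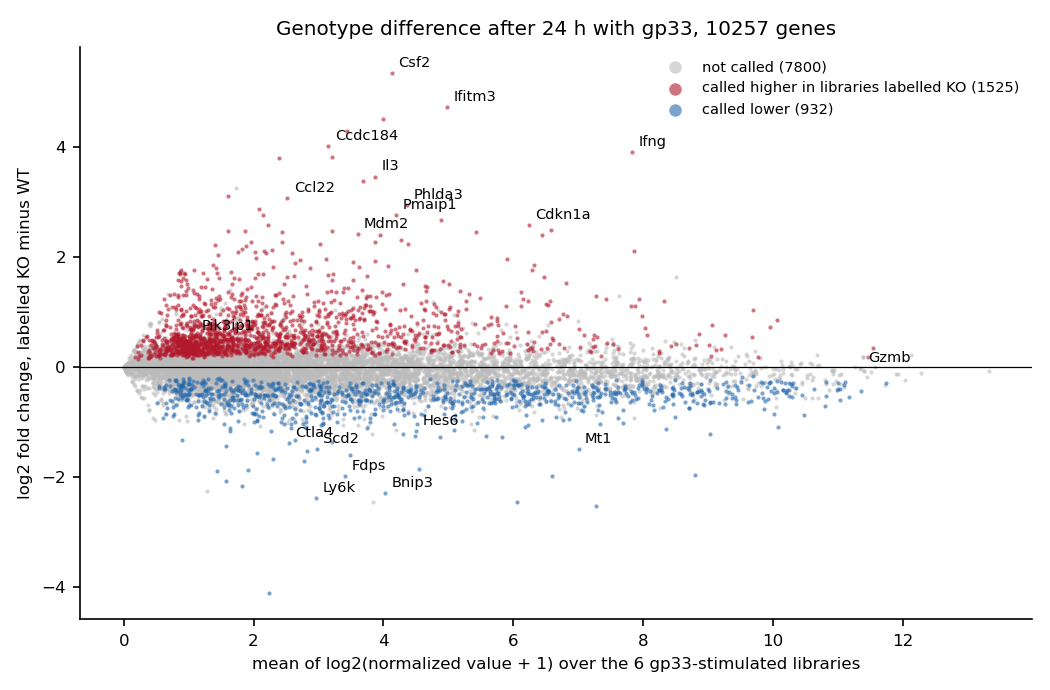
Genotype difference with gp33 for 10257 genes. The x axis is the mean log2(normalized value + 1) over the 6 libraries, the y axis the log2 fold change of libraries labelled KO minus WT, and colours mark the 1525 genes called higher and the 932 called lower. The largest changes are increases, led by Csf2 at 5.35.

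**Figure D2:**
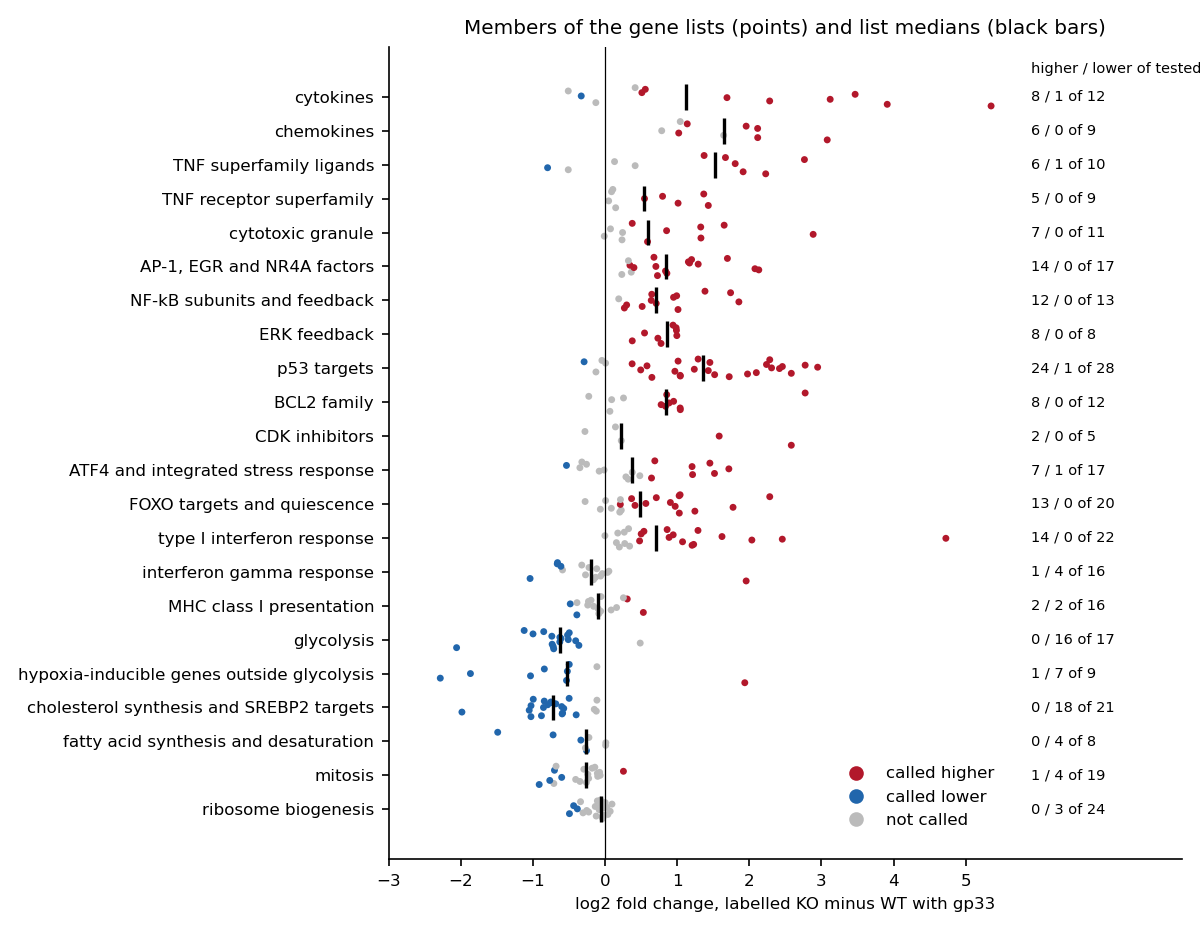
Members of the gene lists as points on a log2 fold change axis (libraries labelled KO minus WT, with gp33), coloured by call, with the list median as a black bar and counts of higher and lower members at the right. Lists of ligands, signalling feedback and p53 targets lie to the right of 0, and glycolysis, hypoxia and cholesterol lists to the left.

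Csf2 had the largest increase of the genes named by rank. Csf2 (ENSMUSG00000018916) encodes GM-CSF, a myeloid growth factor. Its normalized value was 98, 162 and 86.6 in the libraries labelled KO and 0.856, 1.93 and 2.81 in WT, a ratio of means of 61.9. All libraries labelled KO were far above all WT libraries. Lack of overlap was a condition for genes named by rank in this comparison, so it is no support for them. The log2 fold change of Csf2 was 5.35 (SE 0.36, adjusted p = 1.01e-07). Without peptide the same contrast gave 0.35 (adjusted p = 0.604) and with gp33 and inhibitor 0.74 (adjusted p = 0.296). The difference between conditions was called against both, at 5.0 and 4.62.

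Of 12 tested cytokine genes 8 were higher and 1 lower, with a median log2 fold change of 1.12, against 0.0031 over all genes tested. For this and the other lists with gp33, the shares over all genes tested were 14.9% higher and 9.09% lower. Il22, a cytokine that acts on epithelial cells, read 6.14, 11.2 and 7.36 with the KO label and 0, 0.103 and 0 in WT. Its near-identical copy Il22b moved with it, and reads may be split between them, so the level of either is uncertain. Il22 was listed at 0 in 2 WT libraries and present in every library labelled KO, with a fitted change of 3.12 (adjusted p = 2.29e-09). Of the compared libraries only those labelled KO reached the filter value of 1 for Il22. Il3, a haematopoietic growth factor, was 42.4, 56.2 and 45.9 against 2.99, 3.96 and 3.35, also without overlap, at 3.47 (adjusted p = 1.16e-08). Lif, a cytokine of the IL-6 family, was higher by 0.51. Tnf did not pass the test (0.42, adjusted p = 0.186), nor did Lta, the lymphotoxin alpha gene (-0.51, adjusted p = 0.105). Il24 was the gene called lower, at -0.33, and that call ended on leaving out replicate 1 or 3 labelled KO or WT replicate 2 or 3 (adjusted p up to 0.167). The call of Osm, higher by 0.56, ended on leaving out any 1 of the 6 libraries (adjusted p up to 0.133).

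Ifng differed from the other leading cytokines in its other conditions. Its value was 1092, 725 and 872 with the KO label and 55.9, 70.2 and 49 in WT, without overlap, at 3.91 (SE 0.75, adjusted p = 0.0017). It was also called without peptide, at 2.66, where the libraries labelled KO read 2.88, 48.6 and 1.5, so replicate 2 alone was high. With gp33 and inhibitor the fold change was 3.68 (adjusted p = 0.0106). Neither difference between conditions was called (1.26, adjusted p = 0.418, against no peptide, and 0.23, adjusted p = 0.92, against inhibitor).

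Of 9 tested chemokine genes 6 were higher and none lower, with a median of 1.65. The same list had 5 members higher and none lower without peptide, with a median of 1.52, where 5.69% of all genes tested were higher. Ccl22, a ligand of CCR4, read 11.2, 18.2 and 19 with the KO label and 3.64, 0.0596 and 0.57 in WT. WT replicate 1 was well above the other WT libraries and still under every library labelled KO, and the change was 3.08 (adjusted p = 0.000123). Cxcl16, the ligand of CXCR6, was higher by 1.14, and Ccl9 by 2.12. Ccl3 was 488, 467 and 498 against 113, 117 and 103, a change of 2.12 (adjusted p = 0.0096). The call ended with an offset of 0.1 before the log (adjusted p = 0.0501). Its neighbour Ccl4, a related chemokine, was also apart at 635, 616 and 682 against 209.9, 219 and 188, but its change of 1.65 did not pass the test (adjusted p = 0.0948), with an SE of 0.68 from all 6 groups.

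TNF superfamily ligands, which costimulate or kill cells that bear their receptors, were mostly higher, 6 of 10 tested against 1 lower, with a median of 1.52. The list had 5 members higher and none lower without peptide, with a median of 0.38, where 5.69% of all genes tested were higher. Tnfsf4, the OX40 ligand, read 8.22, 12.1 and 11.5 with the KO label and 0.866, 0.584 and 0.634 in WT, and Cd70, the CD27 ligand, read 3.94, 5.21 and 5.16 and 0.328, 0.246 and 0.111. Both were separated without overlap, at 2.77 (adjusted p = 6.82e-09) and 2.23 (adjusted p = 1.58e-09). Of the compared libraries only those labelled KO reached the filter value of 1 for both genes. Without peptide the genotype differences of these genes were 0.10 and 0, neither called. Tnfsf11, the RANK ligand, was higher by 1.80, Tnfsf8, the CD30 ligand, by 1.67, and Tnfsf9, the 4-1BB ligand, by 1.37. Fasl, the Fas ligand, was 21.6, 20.5 and 22.6 against 4.74, 5.81 and 4.46, at 1.92, and was called without peptide too, at 2.10. Ltb, lymphotoxin beta, was the gene called lower, at -0.80 (adjusted p = 0.000128).

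Of 9 tested TNF receptor superfamily genes 5 were higher and none lower. They were the death receptors Fas, Tnfrsf10b, Tnfrsf1a and Tnfrsf25, and Tnfrsf26. Fas read 3.9, 6.17 and 5.58 with the KO label and 1.34, 1.16 and 1.33 in WT, at 1.43 (adjusted p = 2.07e-06). The costimulatory receptors Tnfrsf4, Tnfrsf9, Tnfrsf18 and Cd27 did not pass the test, with changes of 0.091, 0.11, 0.05 and 0.15.

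**Figure D3:**
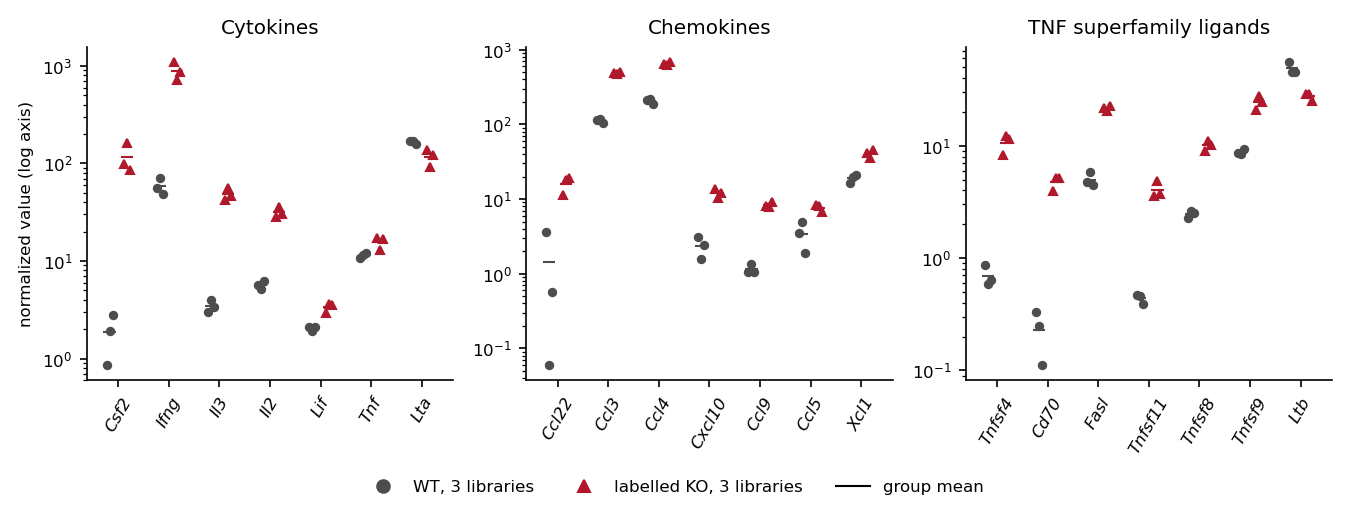
Normalized values on a log axis of cytokine, chemokine and TNF superfamily ligand genes in the 3 WT (circles) and 3 libraries labelled KO (triangles) with gp33; lines are group means. Libraries labelled KO lie above WT for every gene shown but Lta and Ltb.

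Immediate early transcription factors of the AP-1, EGR and NR4A families were higher in 14 of 17 tested members, with none lower and a median of 0.84. Nr4a2, an orphan nuclear receptor induced by T cell receptor signals, read 7.23, 7.29 and 6.53 with the KO label and 1.71, 1.42 and 1.3 in WT. Fosl1, an AP-1 subunit, read 7.97, 8.99 and 8.37 against 1.48, 1.12 and 1.12. Both were apart with tight replicates, at 1.70 (adjusted p = 1.58e-09) and 2.08 (adjusted p = 4.83e-10). Fos was higher by 2.13, Nr4a1 by 1.20, Junb by 1.16 and Nr4a3 by 0.68. Jun was higher by 1.17, and unlike the NR4A genes it was called at 2.24 without peptide. Egr1, at 0.86, lost its call without WT replicate 3 (adjusted p = 0.0505), and Egr3, at 0.84, without replicate 2 of either genotype (adjusted p up to 0.085). Ier3 lost its call without any 1 library (adjusted p up to 0.139). In a direct test, the genotype difference with gp33 was called above that without peptide in 10 members, against 15.7% of all genes tested, and below it in 1, against 9.6%. It was called above that with inhibitor in 11 members, against 6.47% of all genes.

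NF-kB subunits and their feedback genes were higher in 12 of 13 tested, with none lower and a median of 0.71. Nfkbia encodes I-kappa-B alpha, the inhibitor that NF-kB induces to switch itself off. It read 131, 158 and 166 with the KO label and 40.5, 39.1 and 43.4 in WT, at 1.86 (adjusted p = 2.09e-06). Tnfaip3, the A20 deubiquitinase that dampens the pathway, read 4.09, 5.59 and 4.73 against 0.808, 0.651 and 0.724, at 1.74 (adjusted p = 4.64e-08). No library of either group crossed over for these genes. The adaptor Traf1 was higher by 1.39, the ubiquitin ligase Birc2 by 1.01, the subunits Rel by 0.99, Nfkb2 by 0.71, Rela by 0.65 and Nfkb1 by 0.30. Nfkbid did not pass the test (0.19, adjusted p = 0.496). Without peptide none of the genes just named was called, the fold changes of Nfkbia and Tnfaip3 being 0.11 and 0.053. With inhibitor they were -0.15 and 0.13. The difference with gp33 was called above that without peptide in 9 members, against 15.7% of all genes tested. It was called above that with inhibitor in 9, against 6.47%.

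Feedback inhibitors of ERK signalling were higher in 8 of 8 tested members, with a median of 0.86. Dusp6, a cytoplasmic ERK phosphatase, read 6.2, 8.69 and 7.2 with the KO label and 3.34, 3.27 and 2.98 in WT, and Dusp5, a nuclear one, 4.62, 6.84 and 6.07 and 2.42, 2.58 and 2.24. The groups did not overlap, at 0.99 (adjusted p = 0.000858) and 0.99 (adjusted p = 9.89e-05). Dusp2 was higher by 1.0, Spry1, a receptor signalling inhibitor, by 0.94, and Dusp4 by 0.55. The call of Spry1 ended with an offset of 0.1 before the log (adjusted p = 0.15). Dusp10 lost its call without replicate 2 labelled KO (adjusted p = 0.0599). Without peptide the contrast for Dusp2 pointed the other way, at -0.81 (adjusted p = 0.0115), and the difference between conditions was 1.80 (adjusted p = 0.000284).

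The list of p53 genes held 28 tested members, Trp53 itself among them, and 24 were higher and 1 lower, with a median of 1.36. Phlda3, which restrains AKT at the membrane, read 48.3, 73 and 50.6 with the KO label and 8.11, 6.55 and 4.96 in WT, at 2.95 (adjusted p = 1.22e-07). Cdkn1a, the p21 inhibitor of cyclin-dependent kinases, read 159, 202 and 197 against 32.9, 28 and 29.5, at 2.58 (adjusted p = 2.79e-08). Mdm2, the ubiquitin ligase that p53 induces and that degrades p53, read 21.7, 33.8 and 27.1 against 5.13, 4.18 and 3.58, at 2.42 (adjusted p = 3.81e-08). For all of them every library labelled KO was above every WT library, as naming by rank required, and replicate 2 was the highest. Pmaip1, the death inducer NOXA, was 42.8, 48.1 and 50.4 against 6.35, 5.86 and 5.86, at 2.77 with an SE of 0.10. Further members were Plk2 at 2.46, Perp at 2.31, Trp53inp1 at 2.28, Psrc1 at 2.24 and Ccng1 at 1.98.

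Ak1, an adenylate kinase, was nearly off in WT at 0.0771, 0.0365 and 0.0345 and read 1.77, 3.37 and 2.43 with the KO label. Of the compared libraries only those labelled KO reached the filter value of 1, so its separation is partly set by the filter. Trp53 did not pass the test, with values of 7.48, 6.72 and 7.12 against 7.42, 7.45 and 7.18 and a change of -0.043 (adjusted p = 0.802). Sesn1 and Ddb2 also did not pass (0.0081 and -0.13). Tigar was lower at -0.29, a call that ended without replicate 2 labelled KO (adjusted p = 0.0527). Gadd45a lost its call without replicate 2 or 3 of either genotype (adjusted p up to 0.136). In the other conditions the list stood near 0, with medians of 0.032 without peptide and 0.11 with inhibitor. The difference with gp33 was called above that without peptide in 24 members, against 15.7% of all genes, and below in 1, against 9.6%. It was called above that with inhibitor in 21, against 6.47%. Members that were called with inhibitor were smaller there, such as Psrc1 at 1.45 and Pmaip1 at 1.20.

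**Figure D4:**
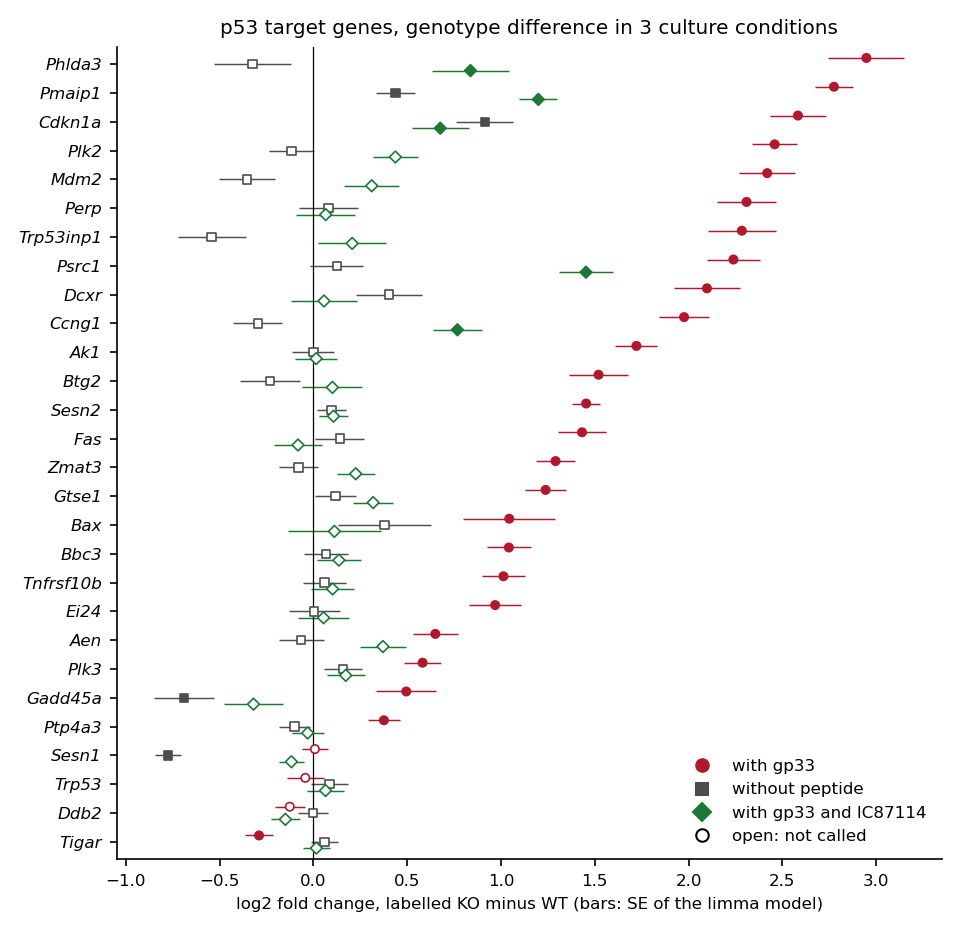
Log2 fold change of libraries labelled KO minus WT for the 28 tested genes of the p53 list with gp33 (red circles), without peptide (grey squares) and with gp33 and IC87114 (green diamonds). Bars are SE of the limma model, 3 libraries a group, and open symbols are not called. The red points spread to 2.95 while most others lie near 0.

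Genes of the BCL2 family, which set the threshold for mitochondrial cell death, were higher in 8 of 12 tested members and lower in none. They held both death-promoting members, Bbc3 (PUMA) at 1.04 and Bax at 1.04, and protective ones, Bcl2l1 at 0.95 and Mcl1 at 0.86. Bcl2l1 read 5.06, 5.18 and 4.9 with the KO label and 2.29, 2.17 and 1.93 in WT, without overlap. Bcl2a1a, Bcl2a1b and Bcl2a1d, protective near-identical copies whose reads may be shared, were higher by 0.84, 0.78 and 0.89. Of 5 tested genes for inhibitors of cyclin-dependent kinases, Cdkn1a and Cdkn2b were higher. Cdkn2b, the p15 inhibitor, read 2.19, 2.83 and 1.41 with the KO label and 0.0451, 0.0256 and 0.0162 in WT, at 1.58 (adjusted p = 7.40e-07). Of the compared libraries only those labelled KO reached the filter value of 1 for Cdkn2b.

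Of 19 tested mitotic genes 4 were lower and 1 higher, with a median of -0.26, and in 15 of them all libraries labelled KO were below all WT libraries, against 25.6% of all genes tested. Summed values of the 24 listed genes were 144.5 to 191 with the KO label and 236.5 to 246.5 in WT. Of 20 genes of the G1/S step and DNA replication 4 were lower and 1 higher. Over all genes tested, 9.09% were lower and 14.9% higher, to be set beside both lists. Plk1, a mitotic kinase, read 2.62, 1.87 and 1.88 with the KO label and 4.27, 4.26 and 3.63 in WT, at -0.70 (adjusted p = 0.000188). Aurka, the kinase of spindle poles, was lower at -0.91, a call that ended with an offset of 0.1 before the log (adjusted p = 0.0915). Replicate 2 was the lowest of the libraries labelled KO for Aurka, and was also lowest for Mki67, a proliferation marker that was not called (-0.075, adjusted p = 0.673). The count of lower mitotic genes depended on the offset before the log, at 1 with an offset of 0.1 and 8 with an offset of 5, and was 2 without replicate 2 of either genotype. Mcm7, a helicase subunit, was lower at -0.52 and lost its call without replicate 2 labelled KO (adjusted p = 0.0634). The other replication calls each ended on leaving out 1 or more libraries (adjusted p up to 0.171 for Mcm6).

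Genes of the integrated stress response, which ATF4 drives when translation initiation is curbed, were mixed. Of 17 tested members 7 were higher and 1 lower, with a median of 0.38. Ddit3, the CHOP factor, read 8.02, 7.96 and 9.22 with the KO label and 2.28, 2.69 and 1.9 in WT, and Chac1, a glutathione-degrading enzyme, 4.14, 4.59 and 4.33 and 1.12, 1.5 and 1.31. Neither gene overlapped, at 1.52 (adjusted p = 3.33e-08) and 1.21 (adjusted p = 1.72e-08). Nupr1 was higher by 1.72, Sesn2, also a p53 target, by 1.45, Ppp1r15a, which restores translation, by 1.21, Trib3 by 0.69 and Atf4 by 0.64. None of the serine synthesis genes of the list was called higher. Psat1 was lower at -0.53, a call that ended with an offset of 0.1 before the log (adjusted p = 0.0805), and Phgdh, Psph and Shmt2 did not pass the test (-0.35, -0.26 and -0.32). Asns, asparagine synthetase, also did not pass (0.32, adjusted p = 0.0697).

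Neighbouring stress lists were mixed, where 14.9% of all genes tested were higher and 9.09% lower. Of 14 heat shock and chaperone genes 2 were higher and 5 lower. The stress-inducible Hspa1a and Hspa1b, near-identical copies, were higher by 0.87 and 1.04, while the constitutive Hspa8, at 108, 69.8 and 74 with the KO label and 165, 166 and 148 in WT, was lower at -0.94 (adjusted p = 0.00112). Of 12 unfolded protein response genes 3 were higher and 1 lower, and the chaperone Hspa5 did not pass the test (-0.31, adjusted p = 0.13). Of 6 amino acid transporters 3 were higher, among them Slc3a2, the heavy chain of the CD98 transporter, by 0.71. Of 14 tRNA synthetase genes 1 was lower, and of 24 ribosome biogenesis genes 3 were lower. Both counts are near the 9.09% of all genes tested.

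Interferon response genes were described in a type I list and an interferon gamma list. Promoters of interferon-induced genes often carry an interferon-stimulated response element, searched here in a form of 10 letters on both strands of RefSeq windows of 300 bases (GRCm38.p6), from 250 before to 50 after the gene start. It was found in 11 of 18 tested type I response genes with a window, in 56.5% of the 23 windows of the list and in 3.44% of all 32851 windows. Matches may overlap one another, and overlapping ones appear as 1 run of capitals. A match is a description of the letters and not a site. The windows of Isg15 (chr4:156200769-156201068, minus strand) and Ifitm3 (chr7:141010695-141010994, minus strand) are shown, with matches in capitals, since these genes carry the values below:
Isg15: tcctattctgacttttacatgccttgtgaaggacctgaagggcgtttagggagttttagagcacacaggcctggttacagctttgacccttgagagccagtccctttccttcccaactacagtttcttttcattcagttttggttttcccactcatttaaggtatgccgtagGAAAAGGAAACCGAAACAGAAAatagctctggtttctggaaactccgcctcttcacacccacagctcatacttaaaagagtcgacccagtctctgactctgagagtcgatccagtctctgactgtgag
Ifitm3: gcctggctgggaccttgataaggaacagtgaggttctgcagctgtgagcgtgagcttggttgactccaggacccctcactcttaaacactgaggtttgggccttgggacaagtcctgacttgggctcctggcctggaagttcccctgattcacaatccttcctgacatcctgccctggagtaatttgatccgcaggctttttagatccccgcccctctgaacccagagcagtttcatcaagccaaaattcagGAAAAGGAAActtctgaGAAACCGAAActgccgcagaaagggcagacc

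The type I list had 22 tested genes, of which 14 were higher with the KO label after gp33 and none lower, with a median of 0.70. Ifitm3, a membrane protein that blocks virus entry, read 162, 157 and 166 with the KO label and 5.23, 5.71 and 4.55 in WT, at 4.73 (adjusted p = 1.01e-07). Isg15, a ubiquitin-like protein, read 6.51, 6.44 and 5.58 against 1.37, 1.12 and 1.51, at 1.62 (adjusted p = 3.11e-07). Both pairs of groups were far apart. For Ifitm3 the contrast was also called without peptide, at 5.15 (adjusted p = 6.70e-08), and with inhibitor, at 3.13 (adjusted p = 4.01e-05). Its difference from no peptide was not called (-0.42, adjusted p = 0.531), while that from inhibitor was (1.59, adjusted p = 0.039). Usp18, which removes ISG15 and damps the receptor, was higher by 1.29, Ifit1 by 1.23, Ifitm2 by 2.46, Oas1a by 0.95 and Irf7 by 0.89. Ifitm1, Ifitm2 and Ifitm3 are related copies in a cluster and share sequence, which makes single levels uncertain. Isg20, Ifit2 and Bst2 did not pass the test (0.20 for Bst2). Ifit3b lost its call without replicate 2 labelled KO (adjusted p = 0.0534), and Oasl2 without replicate 1 or 3 labelled KO or WT replicate 2 or 3 (adjusted p up to 0.0554). Without peptide 19 members were higher, where 5.69% of all genes tested were, with a median of 1.26. With inhibitor 4 were higher and 1 lower, where 2.01% and 2.61% of all genes were. The difference with gp33 was called above that without peptide in 1 member, against 15.7% of all genes, and below in 10, against 9.6%. It was called above that with inhibitor in 9, against 6.47%.

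Interferon gamma response genes were not higher as a group, while Ifng itself was. Of 16 tested members 1 was higher and 4 lower with gp33, with a median of -0.19. Gbp2, a guanylate-binding protein, read 2.5, 3.04 and 3.04 with the KO label and 7.47, 6.64 and 6.66 in WT, at -1.04 (adjusted p = 0.000116), with all libraries labelled KO below WT. Tgtp1 and Tgtp2, near-identical GTPases, were lower at -0.66 and -0.66, and Irgm1 at -0.61. These 3 calls ended on leaving out single libraries, with adjusted p up to 0.0579, 0.0647 and 0.0999. The count of lower genes was 1 without replicate 2 labelled KO, WT replicate 1 or WT replicate 3, and 2 without any other of the 6 libraries. Cxcl10, a chemokine that either interferon can induce, was the higher gene, at 1.96. Without peptide all 16 were higher, where 5.69% of all genes tested were, with a median of 1.42. The difference with gp33 was called below that without peptide in 15 of them, against 9.6% of all genes. For Gbp2 the values without peptide were 24.8, 28.3 and 28.8 with the KO label and 9.54, 5.62 and 5.94 in WT, at 1.85. MHC class I presentation genes counted 2 higher and 2 lower of 16 with gp33, near the 14.9% and 9.09% of all genes tested. Their calls without peptide were 13 higher, against 5.69% of all genes. Psmb8, an immunoproteasome subunit, was lower at -0.48 with gp33 and higher by 0.66 without peptide.

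Glycolysis genes were lower in 16 of 17 tested members with gp33 and higher in none, with a median of -0.63. Aldoc, an aldolase, read 0.467, 0.533 and 0.363 with the KO label and 5.16, 4.62 and 5.41 in WT, at -2.06 (adjusted p = 4.00e-06). Tpi1, triosephosphate isomerase, read 224, 212 and 225 against 487, 473 and 480.0, at -1.12 (adjusted p = 9.93e-05). No library of one group reached the other. Slc2a3, a glucose transporter, was lower at -0.85, Slc16a3, which exports lactate, at -1.0, Pkm at -0.74 and Ldha at -0.63. Pfkl lost its call without replicate 3 labelled KO (adjusted p = 0.0587). Hk2, a hexokinase, did not pass the test (0.49, adjusted p = 0.0712), its libraries labelled KO spreading over 2.69, 4.12 and 1.41. Glycolytic genes have many processed pseudogenes, whose reads the deposited values may share, and Tpi-rs5 and Tpi-rs11, related sequences of Tpi1, were lower at -1.33 and -1.21. Over all 3352 tested processed pseudogenes 388 were lower and 168 higher. Without peptide 10 glycolysis genes were higher, where 5.69% of all genes tested were, and none lower. With inhibitor 15 were lower, where 2.61% of all genes were. Of the members 1 differed between gp33 alone and gp33 with inhibitor, where 9.74% of all genes did.

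Hypoxia-inducible genes outside glycolysis were lower in 7 of 9 tested members and higher in 1, with a median of -0.53. In the inhibitor groups 8 were lower and none higher, with a median of -1.07, where 2.61% of all genes tested were lower. Members called without peptide were 2 higher and 1 lower, where 5.69% and 7.23% of all genes were. Bnip3, a mitophagy receptor, read 5.61, 7.8 and 5.98 with the KO label and 35.8, 33.3 and 36.1 in WT, and Egln3, an oxygen-sensing prolyl hydroxylase, 1.16, 0.98 and 0.779 and 6.46, 5.76 and 6.31. These groups were wide apart, at -2.28 (adjusted p = 5.73e-06) and -1.87 (adjusted p = 1.17e-08). Bnip3l was lower at -1.03, and Pdk1, which holds pyruvate out of mitochondria, at -0.50. Ankrd37 lost its call without replicate 1 or 3 labelled KO or WT replicate 2 or 3 (adjusted p up to 0.115). Hif1a, the factor that drives these genes, did not pass the test (0.12, adjusted p = 0.37). Adm, adrenomedullin, was the gene higher with gp33, at 26.6, 26.1 and 30.8 with the KO label and 7.58, 4.54 and 7.89 in WT. With inhibitor it was lower at -1.92 (adjusted p = 0.000976), and the difference between these conditions was 3.86 (adjusted p = 3.24e-05). The core of the hypoxia response element, ACGTG, was found in the promoter windows of 6 of 8 tested genes with a window and in 19.6% of all windows.

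Cholesterol synthesis genes and other SREBP2 targets were lower in 18 of 21 tested members and higher in none, with a median of -0.72. Fdps, farnesyl diphosphate synthase, read 5.15, 3.69 and 4.35 with the KO label and 18.4, 20.8 and 21.6 in WT, at -1.98 (adjusted p = 3.92e-06). Hmgcs1, an early enzyme of the mevalonate pathway, read 5.23, 5.43 and 3.67 against 11.9, 11.1 and 9.65, at -1.05 (adjusted p = 0.000151). All libraries labelled KO were below WT for both. Srebf2, which encodes the factor itself, was not called (-0.11, adjusted p = 0.213). Sqle was lower at -0.84, Insig1 at -0.85 and Stard4, a sterol carrier, at -1.0. Without peptide 4 members were lower, where 7.23% of all genes tested were, and with inhibitor 9, where 2.61% were. The fatty acid desaturase Scd2 was lower at -1.49, and 4 of 8 tested genes of fatty acid synthesis and desaturation were lower, Fasn not among them (-0.22, adjusted p = 0.0824).

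The letters TCACNCCAC of the sterol regulatory element were found in the window of 1 of 16 tested cholesterol genes with a window, Hmgcs1, and in 1.24% of all windows. No match says only that these letters are not in the window. In cytokine genes the AP-1 letters TGANTCA were found in 2 of 9 tested genes with a window, in 18.2% of the list's 11 windows and in 7.81% of all windows. A kappa B form of 10 letters was found in 4 of 9, in 36.4% of the list's windows and in 20.7% of all. The windows of Bnip3 (chr7:138909457-138909756, minus strand) and Hmgcs1 (chr13:119690101-119690400, plus strand) are shown with the hypoxia core and the sterol element in capitals, as the genes with large decreases in each list whose window has a match:
Bnip3: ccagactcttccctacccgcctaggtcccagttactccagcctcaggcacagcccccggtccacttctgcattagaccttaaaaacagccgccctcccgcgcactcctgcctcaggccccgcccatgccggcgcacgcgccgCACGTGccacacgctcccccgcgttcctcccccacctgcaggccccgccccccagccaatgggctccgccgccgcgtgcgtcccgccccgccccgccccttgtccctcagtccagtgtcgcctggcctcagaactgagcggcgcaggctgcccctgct
Hmgcs1: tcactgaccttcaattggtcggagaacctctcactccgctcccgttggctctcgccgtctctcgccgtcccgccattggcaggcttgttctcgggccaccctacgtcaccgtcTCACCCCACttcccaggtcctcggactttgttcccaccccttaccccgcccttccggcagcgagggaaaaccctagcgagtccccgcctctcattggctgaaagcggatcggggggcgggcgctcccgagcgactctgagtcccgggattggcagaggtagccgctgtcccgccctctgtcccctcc

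**Figure D5:**
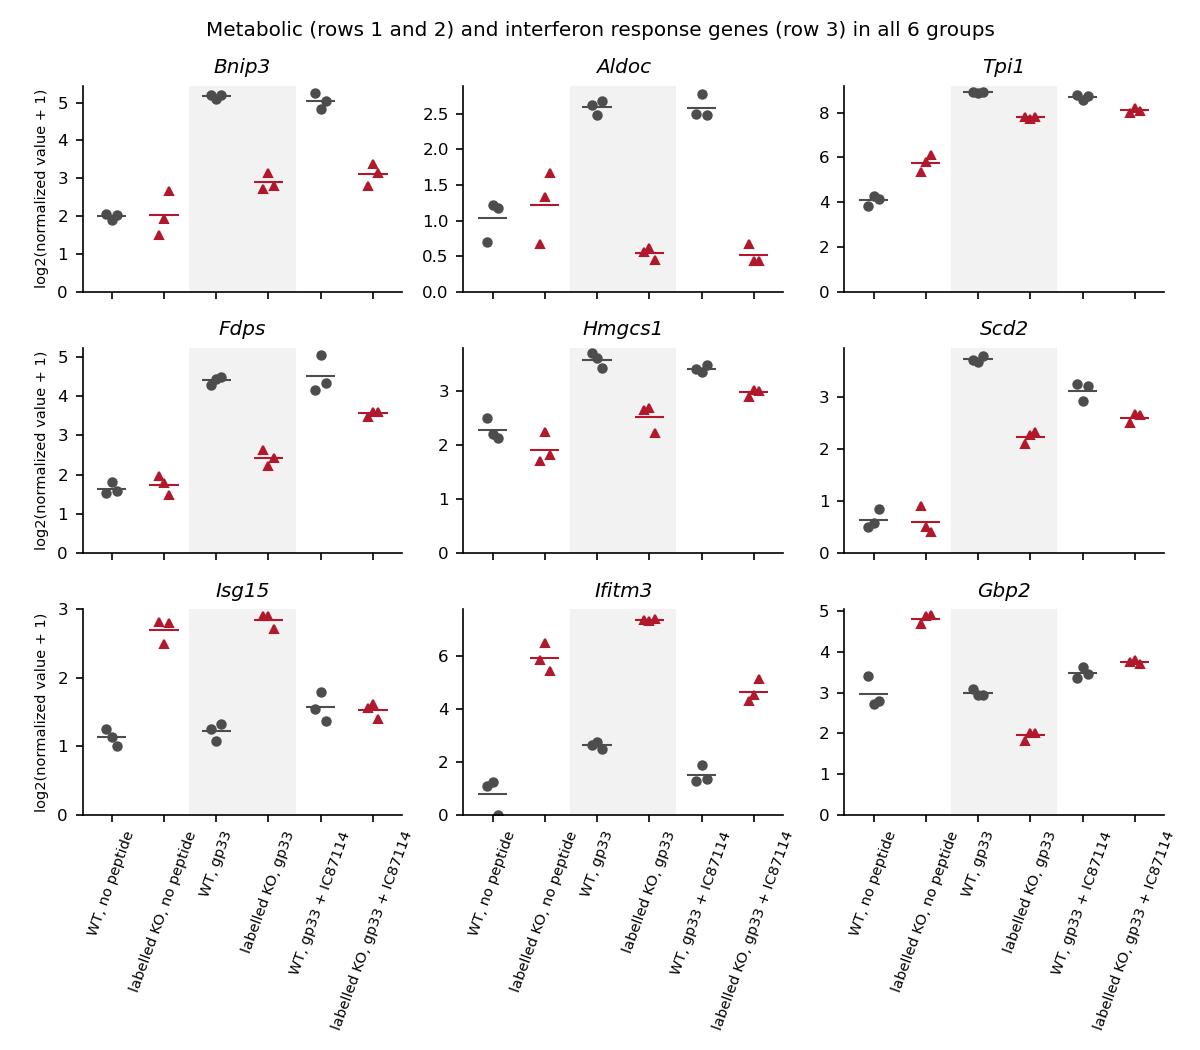
Log2(normalized value + 1) of metabolic and interferon response genes in all 6 groups, WT as grey circles and libraries labelled KO as red triangles, with group means as lines and the compared groups shaded. Metabolic genes are lower with the KO label in the shaded columns, Isg15 and Ifitm3 higher, and Gbp2 lower there but higher without peptide.

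FOXO targets and genes of quiescent T cells were higher in 13 of 20 tested members and lower in none, with a median of 0.49. Over all genes tested 14.9% were higher. The count of higher members was 9 to 13 on leaving out 1 of the compared libraries, and 9 with an offset of 5. It was 9 without replicate 2 labelled KO or WT replicate 3. The list holds Pik3ip1 and shares Trp53inp1 and Sesn1 with the p53 list. Tsc22d3, the GILZ protein, read 2.11, 2.34 and 2.33 with the KO label and 0.628, 0.552 and 0.614 in WT, at 1.03 (adjusted p = 1.01e-07). Ccr7, the lymph node homing receptor, read 317, 462 and 362 against 176, 148 and 151, and S1pr1, which lets T cells leave lymph nodes, 5.23, 4.63 and 5.52 against 2.3, 1.87 and 2.67. The groups did not overlap, at 1.25 (adjusted p = 2.73e-05) and 0.91 (adjusted p = 4.75e-05). Il7r, a survival receptor, was higher by 0.97, Txnip, which limits glucose uptake, by 1.04 and Klf2 by 0.42. The call of Klf2 ended with an offset of 5 before the log (adjusted p = 0.0938). Foxo1 did not pass the test (0.087, adjusted p = 0.334). Tcf7 lost its call without replicate 2 labelled KO or WT replicate 3 (adjusted p up to 0.0909). Btg1 lost its call without replicate 2 labelled KO or WT replicate 2 or 3 (adjusted p up to 0.0875). Klf3 and Tob1 lost theirs without any 1 of 5 libraries (adjusted p up to 0.137 and 0.226), and in other settings. Without peptide 8 members were lower and 2 higher, where 7.23% and 5.69% of all genes tested were. The difference between conditions was called above in 15, against 15.7% of all genes, and below in 1, against 9.6%. For Tsc22d3 the fold change without peptide was -0.70 (adjusted p = 7.47e-06).

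PI3K pathway components gave 3 higher of 8 tested, Pik3ip1 and Rheb among them, where 14.9% of all genes tested were higher. Pik3cd, the isoform that IC87114 inhibits, did not pass the test (-0.072, adjusted p = 0.539). Rheb, at 0.25, lost its call without replicate 1 or 3 labelled KO or any 1 WT library (adjusted p up to 0.0885).

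Among effector and memory transcription factors 6 of 18 tested were higher and 2 lower, where 14.9% and 9.09% of all genes tested were. Id2, which supports effector cells, read 95.8, 124 and 106 with the KO label and 44, 44.2 and 46.9 in WT, and Id3, which marks memory precursors, 27.1, 19.9 and 24.7 and 48.4, 47.9 and 44.8. The groups were apart in opposite directions, at 1.25 (adjusted p = 4.33e-06) and -0.96 (adjusted p = 6.62e-05). Bhlhe40 was higher by 1.12 and Eomes by 0.84. Tbx21, Irf4, Batf and Myc did not pass the test, with adjusted p of 0.697, 0.997, 0.82 and 0.987. Batf3 was close to the threshold at 0.34 (adjusted p = 0.0567) and was called with inhibitor at 2.19.

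Inhibitory receptors were mixed, with 4 of 9 tested higher and 2 lower, where 14.9% and 9.09% of all genes tested were. Ctla4, which competes with CD28, read 2.6, 2.17 and 3.13 with the KO label and 8.34, 8.29 and 8.6 in WT, below without overlap, at -1.38 (adjusted p = 1.17e-07). Btla was higher, at 3.61, 4.33 and 3.95 against 1.64, 1.51 and 1.53 and 0.95 (adjusted p = 2.37e-06). Each of the other calls, Pdcd1 at 0.43, Cd5 at 0.37, Vsir at 0.30 and Lag3 at -0.41, ended on leaving out 1 of several libraries (adjusted p up to 0.0628, 0.109, 0.0616 and 0.0897). For Pdcd1 these were replicate 1 labelled KO and WT replicate 3. Of 19 cytokine receptor genes 6 were higher and none lower, where 14.9% and 9.09% of all genes tested were.

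JAK-STAT genes and their feedback were higher in 9 of 13 tested and lower in 1. Stat5a, which carries IL-2 signals, read 3.62, 3.71 and 3.09 with the KO label and 1.43, 1.4 and 1.31 in WT, at 0.91 (adjusted p = 1.38e-06). Socs2, an inhibitor that STAT5 induces, was higher by 1.16, and Pim2, a kinase, was lower at -0.81. Pim1 read 6.52, 15.3 and 4.53 against 2.62, 2.79 and 2.95, where replicate 2 labelled KO was far above the others, at 1.22. The count of higher genes was 4 to 7 on leaving out 1 of the 6 libraries, with Socs1, Socs3, Pim3, Cish and Stat6 losing their calls (adjusted p up to 0.17, 0.0741, 0.188, 0.0596 and 0.0988). It was 4 without WT replicate 3, which ended all 5 of these calls, and 5 without replicate 1 or 2 labelled KO or WT replicate 2.

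Cytotoxic granule genes were higher in 7 of 11 tested and lower in none, with a median of 0.59. The list also had 7 members higher and none lower without peptide, with a median of 0.61, where 5.69% of all genes tested were higher. Serpinb9, which protects cells from granzyme B, read 148, 158 and 166 with the KO label and 47, 52.3 and 48.5 in WT, at 1.65 (adjusted p = 4.95e-06), and Gzma was higher by 1.33. Gzmc, a granzyme, had the largest change in the list, at 11.1, 8.77 and 12.1 against 0.399, 0.642 and 0.667 and 2.89 (adjusted p = 4.76e-06), without overlap. Gzmb and Prf1, the granzyme and pore former of killing, overlapped between the groups (-0.011, adjusted p = 0.991, and 0.076, adjusted p = 0.769). Without peptide both were called, at 2.54 and 0.89.

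Smaller families held further large decreases. Ly6k read 1.94, 2.43 and 3 with the KO label and 15.9, 16.2 and 18.5 in WT, the largest decrease among the genes named by rule, at -2.38 (adjusted p = 1.54e-08). Ly6a, the Sca-1 protein, overlapped with gp33 (0.13, adjusted p = 0.398) and was called at 3.23 without peptide. The metallothionein genes Mt1 and Mt2, whose proteins bind zinc and copper, were both lower, the call of Mt2 ending with an offset of 0.1 before the log (adjusted p = 0.0653). Mt1 read 92.9, 62.6 and 75.3 against 192, 198 and 258, at -1.48 (adjusted p = 0.000241), and without peptide the contrast was 1.85 (adjusted p = 4.99e-05). Hes6 was lower at -1.15, Tuba4a at -1.25 and Ifi47 at -1.27. Calls for Endog and Bag1 ended on leaving out 1 of 5 libraries (adjusted p up to 0.142 and 0.154), and the call for mt-Tq ended without replicate 3 of either genotype (adjusted p up to 0.0739). Further large increases outside the lists were Ccdc184, at 27.5, 46.1 and 33.6 with the KO label and 2.11, 1.14 and 0.604 in WT, and Marcks, a membrane-bound protein kinase C substrate, higher by 2.58.

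The calls with gp33 were set beside those of the other conditions, which use other libraries. Without peptide 1326 genes were called, 12.9% of those tested, 584 higher and 742 lower. Of the 2457 genes called with gp33, 225 were called in the same direction without peptide and 288 in the opposite one. Those are 9.16% and 11.7% of the gp33 calls, and 16.97% and 21.7% of the calls without peptide. With gp33 and inhibitor 474 genes were called, 4.62% of those tested. Of the gp33 calls 262 were shared in direction, which is 10.7% of the gp33 calls and 55.3% of the inhibitor calls, and 34 were opposite. In direct tests of the difference, 2595 genes (25.3%) differed between gp33 and no peptide and 999 (9.74%) between gp33 and gp33 with inhibitor. The latter count was 569 without replicate 2 labelled KO, 587 without WT replicate 3 and 630 without WT replicate 2.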

How the data were processed

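RNA of sorted CD8 T cells was made into stranded polyA libraries, per the labels' protocols. The authors deposited 1 table of normalized values for 18 libraries, 3 in each of 6 groups, which was made in Partek by its name. Its values are read here as a normalized signal after undoing log2(value + 1), since the file header gives neither log base nor offset. The deposited log2 values carry no counts, so depth is unknown and no counting interval is given. Whether values are scaled to gene length is not given in the sources used here. Sums and shares over genes therefore serve to compare libraries and not genes. Genome builds GRCm38 and GRCm39 are named in the submitters' processing notes without a role; the aligner and counter are not given in the sources used here. RefSeq promoter windows of GRCm38.p6 were used as sequences only.

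All 18 libraries were fitted with a group-means model on log2(value + 1) in limma 3.58.1 (R 4.3.3) with trended, robust moderation, 12 residual degrees of freedom and Benjamini-Hochberg adjustment over 10257 genes with a value of at least 1 in at least 3 libraries. The procedure was tested on simulated data. Members and lists were chosen with earlier results of these data known. Genes outside the lists were named by rank: 15 called genes at each end of the gp33 comparison, and 8 at each end of each difference between conditions. All had a mean log2 level of at least 2 over the 6 libraries. Symbols of predicted genes, clones, pseudogenes (-ps) and receptor or immunoglobulin segments were left out. The 15 at each end also needed all libraries of one group above all of the other. Lack of overlap in those genes was thus a condition of naming and not a result. Alternatives were offsets of 0.1 and 5, other filters and scalings, the 6 libraries alone, a replicate block, moderation without trend, and leaving out each of the 6 compared libraries and WT replicate 2 of the inhibitor group; the other libraries were not left out in turn. Samples were not treated as paired by replicate number in the main fit. Values of some list members are not reported here.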

Additional observations from a re-analysis of the deposited data

Results flagged for a closer look

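The genotype difference itself differed between conditions, by the limma test of that difference, in 2595 genes for gp33 against no peptide and in 999 for gp33 against gp33 with inhibitor. The values below are the KO minus WT log2 fold change with gp33 minus that in the other condition. The 16 genes of each comparison are those the naming rule took.

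Against no peptide, the genes whose difference was larger with gp33 were Csf2 (5.0, adjusted p = 1.17e-05), Ccdc184 (4.25), Il3 (3.43), Phlda3 (3.27), Ccl22 (3.03), the 7SK row ENSMUSG00002076161 (2.81), Mdm2 (2.77) and Marcks (2.69). The table holds several 7SK rows, whose reads may be shared. Those with the smallest values were Iigp1 (-3.94), Mt1 (-3.33), Ifitm2 (-3.13), Ly6a (-3.09), Tpi-rs11 (-2.89), Gbp2 (-2.89), mt-Tq (-2.83) and Igtp (-2.79). For Iigp1 and Igtp, both interferon-inducible GTPases, the contrast without peptide was 3.82 and 2.20, both called, and with gp33 -0.11 and -0.59, neither called. Mt1 changed sign, from 1.85 to -1.48.

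Against gp33 with inhibitor, the genes whose difference was larger with gp33 alone were Csf2 (4.62), Adm (3.86), Ccdc184 (3.21), Il3 (2.92), Ccl22 (2.57), Gzmc (2.54), Marcks (2.46) and Fos (2.25). Those with the smallest values were Batf3 (-1.85), Ly6a (-1.81), Iigp1 (-1.71), Calhm6 (-1.61), Ube2c (-1.47), Tuba4a (-1.46), Ifi47 (-1.44) and Ccnb1 (-1.43). Batf3, an AP-1 family factor, read 5.39, 7.5 and 6.57 with the KO label and 0.663, 0.656 and 0.564 in WT with inhibitor, and 10.8, 7.16 and 9.33 and 6.51, 7.42 and 6.76 without it.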

How the results depend on the processing

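Under the 16 alternatives none of the 510 genes recomputed singly reversed a call, while the balance of calls turned from 62.1% higher to 49.3% with the filter at 5. Of 277 called genes among them, 204 kept their call in every setting, 65 lost it on leaving out 1 or more libraries and 46 in another setting. Counted over genes and settings, 147 results were called in an alternative and not in the main fit. With a filter at 5, the gp33 contrast had 1468 calls (724 higher, 744 lower), the contrast without peptide 697, and the differences from no peptide and from inhibitor 1429 and 660. Members called there were 1 of the TNF receptors, 6 of NF-kB, 3 of ERK feedback, 15 of p53, 3 of ATF4, 11 lower of cholesterol and 4 of JAK-STAT, as fewer genes were tested. Without a filter beyond a value above 0, the counts were 3768 (2716 higher), 2545 without peptide and 4133 for the difference from no peptide, with 8 TNF receptors higher and 12 hypoxia genes lower. The 6 libraries alone gave 3968 calls, 1817 of them lower, with 9 interferon gamma genes and 7 mitotic genes lower. Protein-coding genes alone, rescaled, gave 529 lower. Lower mitotic genes were 1 with an offset of 0.1 and 8 with an offset of 5. For these other settings the cause was not tested. Leaving out 1 of 7 libraries, the 6 compared and WT replicate 2 of the inhibitor group, gave 1582 to 3647 calls with gp33 (544 to 1680 lower), 1140 to 2101 without peptide and 569 to 1477 for the difference from inhibitor. It gave 1 to 5 interferon gamma and 2 to 5 mitotic genes lower, and 4 to 10 JAK-STAT genes higher. Without replicate 1 labelled KO, whose B cell markers were highest, gp33 calls were 2108.

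Not every same-numbered pair correlated above 0.1, and different-numbered pairs across conditions were not computed. The correlations therefore cannot tell whether replicate numbers pair samples. Deviations of same-numbered libraries of the 2 genotypes with gp33 correlated at -0.0034, -0.00014 and -0.00095. Across conditions within a genotype the correlations ran from -0.03 to 0.221. Those of replicate 1 were over 0.1 for gp33 against inhibitor, at 0.195 with the KO label and 0.221 in WT, and for gp33 against no peptide in WT, at 0.121. With the number as a block, 2266 genes were called, 1420 higher and 846 lower. Depth is not given, so low genes cannot be given a counting error.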

Other observations

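The segments of the transgenic P14 receptor, looked at after their values were seen, differed between the genotypes. Trav14-1 read 329.8, 330.9 and 337.9 in the libraries labelled KO with gp33 and 149.9, 156.4 and 150.6 in WT. Trbv13-3 read 226.5, 239.7 and 261.4 against 93.25, 103.2 and 98.28. Neither segment overlapped between the groups, and Trbv13-3 took 75.8% to 77.0% of the summed values of all Trbv genes with the KO label and 78.2% to 80.1% in WT. Trav14 segments took 89.6% to 91.1% of the summed values of all Trav genes with the KO label and 84.6% to 87.3% in WT.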
